A study of Mus musculus with 4 samples.

Results

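Described here are 34 genes of the endoplasmic reticulum (ER): its chaperones and disulfide isomerases, the sensors and transcription factors of the unfolded protein response, the machinery that removes misfolded proteins, and targets of the stress factors ATF4 and CHOP. The genes were chosen by name for these roles, and all 34 were found by symbol among the 24028 mouse genes of the expression table. The table holds RNA sequencing of macrophages sorted from sciatic nerve at day 3 after nerve injury in female mice, young at 3 months or aged at 15 months. All animals carried Cx3cr1-GFP+/- and Ccr2-RFP+/-, reporters inserted into those 2 chemokine receptor genes, so that each animal keeps 1 functional copy of each, and the labels give the sorted cells as CCR2+ Cx3cr1+. Mice were pooled into 2 libraries per age, called pools below, and the submitters do not say which mice went into which pool. With no uninjured nerve among the 4 libraries, the only comparison is aged against young. Where nothing says how the pools were formed, the p-values measure only the spread between these pools.

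The ER folds proteins that are bound for the cell surface, the lysosome or secretion. When unfolded protein builds up, the chaperone BiP leaves the membrane sensors IRE1, PERK and ATF6. IRE1 splices the mRNA of Xbp1, PERK phosphorylates eIF2alpha and so favours translation of ATF4, and ATF6 is cut in the Golgi to release a transcription factor. Together these factors raise the transcription of chaperones and of the degradation machinery, and ATF4 also induces CHOP and genes of amino acid supply. Macrophages that clear myelin debris and secrete cytokines depend on this folding capacity. Gene-level values of mRNA cannot show splicing, phosphorylation or cleavage of the sensors.

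Values are FPKM, reads scaled to the length of the gene and to the read total of the library. The deposited values mixed several read totals within a library and were first put on the library's own total. The totals were 11489336 and 10765234 reads for the young libraries and 8613360 and 9986706 reads for the aged libraries. Differences are aged minus young on the log2(FPKM + 1) scale, from limma fitted to the 11656 genes with a mean of at least 1 FPKM, and this scale understates the change of low genes. All 9 macrophage markers had a mean of at least 1 FPKM, and their sum was 14026 and 11703 FPKM in young pools and 12198 and 9226 FPKM in aged pools. Most of that sum was Lyz2, at 12267 and 9886 FPKM in young pools and 10485 and 7491 FPKM in aged pools. Aged values lay below both young values in Itgam, at 107 and 106 against 68.0 and 60.5 FPKM. The same held for Adgre1, at 123 and 138 against 108 and 103 FPKM, and Fcgr1, at 251 and 254 against 224 and 204 FPKM. In Csf1r, at 178 and 256 against 278 and 262 FPKM, aged values lay above the young ones, and the other markers overlapped between the ages. The sum of 9 fibroblast markers, also all at 1 FPKM or more, was highest in the second young pool, at 329 FPKM, beside 127 FPKM in the first and 184 and 158 FPKM in the aged pools. Of 11 markers of B cells and of plasma cells, the latter rich in ER chaperones, 4 reached a mean of 1 FPKM. The sum of the 11 was 74.5 to 111 FPKM, mostly Sdc1 and Irf4. Jchain and Mzb1 were at most 0.238 and 0.111 FPKM. Of 4 T cell markers only Cd3g had a mean of at least 1 FPKM, at 97.8 FPKM in the second aged pool and at most 1.54 FPKM in the others. The part of other cells in the results was not tested, and fewer cells of a type and less RNA per cell cannot be told apart in these pools.

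Promoter sequence was not used to choose the genes. The ER stress element, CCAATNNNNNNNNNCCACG, is bound by ATF6 together with the factor NF-Y at its CCAAT part, and by XBP1. It was first described in promoters that include those of Hspa5, Hsp90b1 and Calr, so matches in these genes are known ones. It was searched on both strands in RefSeq promoter windows of GRCm38.p6, from 250 bases before to 50 bases after the start of transcription. Of the 34 genes, 29 had a window, and Atf6, Derl1, Hyou1, Manf and Sec61a1 had none in the table used. An exact match lay in 9 of these 29 genes (31.0%), against 37 of the 27025 genes with a window (0.137%), so that the 9 genes made up 24.3% of all genes with a match. The genes were chosen for roles in the response that ATF6 and XBP1 drive, so this higher share is not independent of the choice. Canx, Pdia6 and Hspa5 are shown first because their aged values lay below their young values in both pools, then Creld2 because its aged values lay above, then 4 genes whose ages overlapped and Derl3, which was barely detected. The stretches run 5′ to 3′ on the strand of the gene, and capitals mark the fixed letters of the element, which reads as its reverse complement in Creld2, Calr, Derl3 and the second match of Hsp90b1.
Hspa5, chr2:34772015-34772053, plus strand: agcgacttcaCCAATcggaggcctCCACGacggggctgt
Canx, chr11:50325790-50325828, minus strand: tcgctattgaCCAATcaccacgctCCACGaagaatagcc
Pdia6, chr12:17266481-17266519, plus strand: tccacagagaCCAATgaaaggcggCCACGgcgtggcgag
Creld2, chr15:88819510-88819548, plus strand: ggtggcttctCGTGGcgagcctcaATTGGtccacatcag
Calr, chr8:84847065-84847103, minus strand: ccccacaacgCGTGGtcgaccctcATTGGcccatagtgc
Dnajc3, chr14:118937817-118937855, plus strand: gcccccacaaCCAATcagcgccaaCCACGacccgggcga
Syvn1, chr19:6046522-6046560, plus strand: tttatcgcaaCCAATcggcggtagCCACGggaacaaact
Hsp90b1, chr10:86705523-86705666, minus strand: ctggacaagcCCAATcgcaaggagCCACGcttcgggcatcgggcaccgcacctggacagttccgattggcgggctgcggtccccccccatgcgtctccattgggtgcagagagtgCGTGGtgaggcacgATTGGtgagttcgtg
Derl3, chr10:75893232-75893270, plus strand: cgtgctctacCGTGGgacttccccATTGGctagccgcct

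The element lay nearest to the start in Syvn1, from base -44 to -26, and farthest in Hsp90b1, from base -212 to -194. Hsp90b1 was the only one of the 9 with a second exact match, and near matches were not searched. A match is a stretch of letters and not a measured binding site. A shorter form, ATTGGNCCACG, was in the windows of Herpud1 and Dnajb11, against 0.0365% of all windows. The core TGACGTGG of XBP1 and ATF6 sites was in 0 of the 29 genes and in 0.676% of all windows, which says only that these letters are not in these windows. TGATGNAA, a form of the element bound by dimers of C/EBP factors and ATF4, lay in Asns, Chac1, Herpud1 and Trib3, against 3.97% of all windows. Asns and Chac1 are shown with that element in capitals because they are textbook targets of ATF4, and Herpud1 because it holds the shorter form as well. In Chac1 and Herpud1 the element reads as its reverse complement.
Asns, chr6:7693215-7693242, minus strand: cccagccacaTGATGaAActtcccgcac
Chac1, chr2:119351039-119351066, plus strand: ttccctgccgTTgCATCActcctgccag
Herpud1, chr8:94386307-94386397, plus strand: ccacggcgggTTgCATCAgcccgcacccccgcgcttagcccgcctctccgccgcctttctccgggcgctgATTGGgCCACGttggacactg

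The levels spanned more than 3 orders of magnitude on the FPKM scale. P4hb had the highest mean, 437 FPKM, above that of 99.1% of the genes tested, followed by Hspa5 at 279 FPKM, Hsp90b1 at 223 FPKM, Calr at 180 FPKM, Manf at 177 FPKM, Atf4 at 165 FPKM and Xbp1 at 105 FPKM. A further 20 genes had means between 10 and 100 FPKM. Ern1, Syvn1, Eif2ak3, Asns and Chac1 lay below 10 FPKM but passed the minimum, and Trib3 and Derl3 did not. The 34 genes together made up 0.683% and 0.708% of all FPKM in the young and 0.671% and 0.648% in the aged libraries. The share was lowest in the second aged pool, in which 14 of the 32 genes tested also had their lowest value. How many of all genes were lowest in that pool was not computed. That pool also had the lowest sum of FPKM, 345574, and the fewest genes above 0, 19897.

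**Figure D1:**
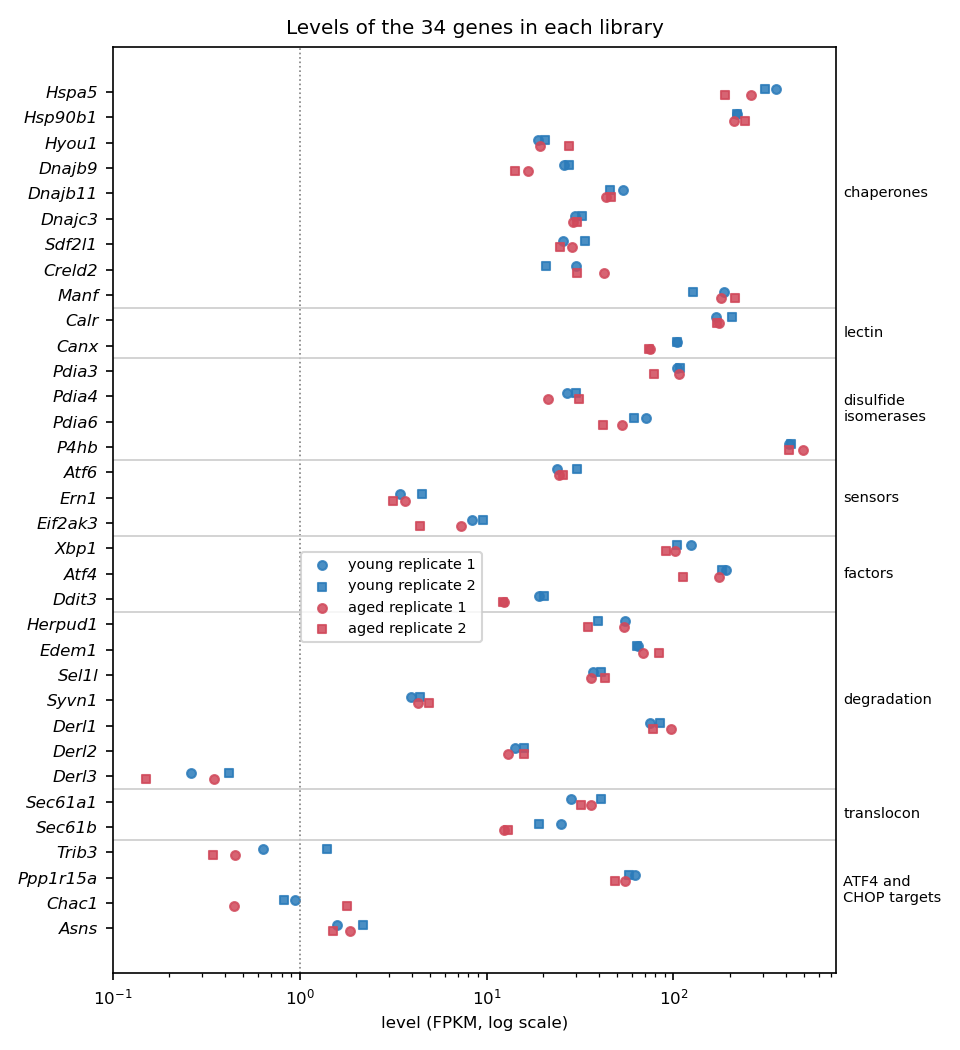
Level of each of the 34 genes in each of the 4 libraries (FPKM, log axis), grouped by role; blue points are young, red points aged, circles replicate 1 and squares replicate 2, and the dotted line is the minimum of 1 FPKM for testing. P4hb and Hspa5 stand at the top, Derl3 and Trib3 at the bottom, and in Canx, Ddit3 and Dnajb9 the red points lie to the left of the blue points.

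No gene of the 34 passed the test for age. limma called 0 of the 32 genes tested at an adjusted p below 0.05, as it called 0 of all 11656 genes (0%), and the adjusted p of the 32 ran from 0.740 to 0.998. Their median log2 difference was -0.11, beside -0.09 over all genes tested, and 22 of 32 (68.8%) had a negative difference, beside 59.5% of all genes. Both aged pools lay below both young pools in 10 of the 32 (31.2%), beside 26.2% of all genes, and above in 2 (6.25%), beside 11.8%. An unadjusted p below 0.05 in limma's test was found for 5 of the 32, all with lower aged values (15.6%), beside 4.87% of all genes in that direction, and for 0 in the other direction, beside 1.76%. These 5 were Dnajb9, Sec61b, Ddit3, Canx and Hspa5. With median ratio scaling the count in either direction was 1 of the 32, beside 714 of all 11656 genes. With quantile scaling it was 5, beside 780, and with the replicate number as a block 4, beside 906. A pseudocount of 0.1 gave 5, beside 773, and a minimum of 5 FPKM gave 5 of 28, beside 565 of 7071. The values as deposited gave 7, beside 1006, and no filter 4 of 34, beside 1021 of 22888. The count fell when the first young, the second young or the second aged pool was left out. In both fits without a young pool the count over all genes fell as well, and without the second aged pool it rose. Without the first aged pool the count of the listed genes did not fall, and there the count over all genes rose. Such fits leave a single pool in 1 age. In 8 of the 32, all among the 10 with both aged pools below, the difference between the ages was larger than the gap within either age. The same share over all genes was not computed. The zero of the scale moved with the scaling: with the median ratio of genes in place of the read total, the median of all genes went from -0.09 to 0.02 and the 32 split into 16 lower and 16 higher, with 7 below and 6 above without overlap, beside 18.8% of all genes below and 18.8% above. The 7 were Canx, Ddit3, Dnajb9, Eif2ak3, Hspa5, Pdia6 and Sec61b, all among the 10. With 2 pools against 2, an exact two-sided permutation test of a single gene cannot pass 0.05.

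**Figure D2:**
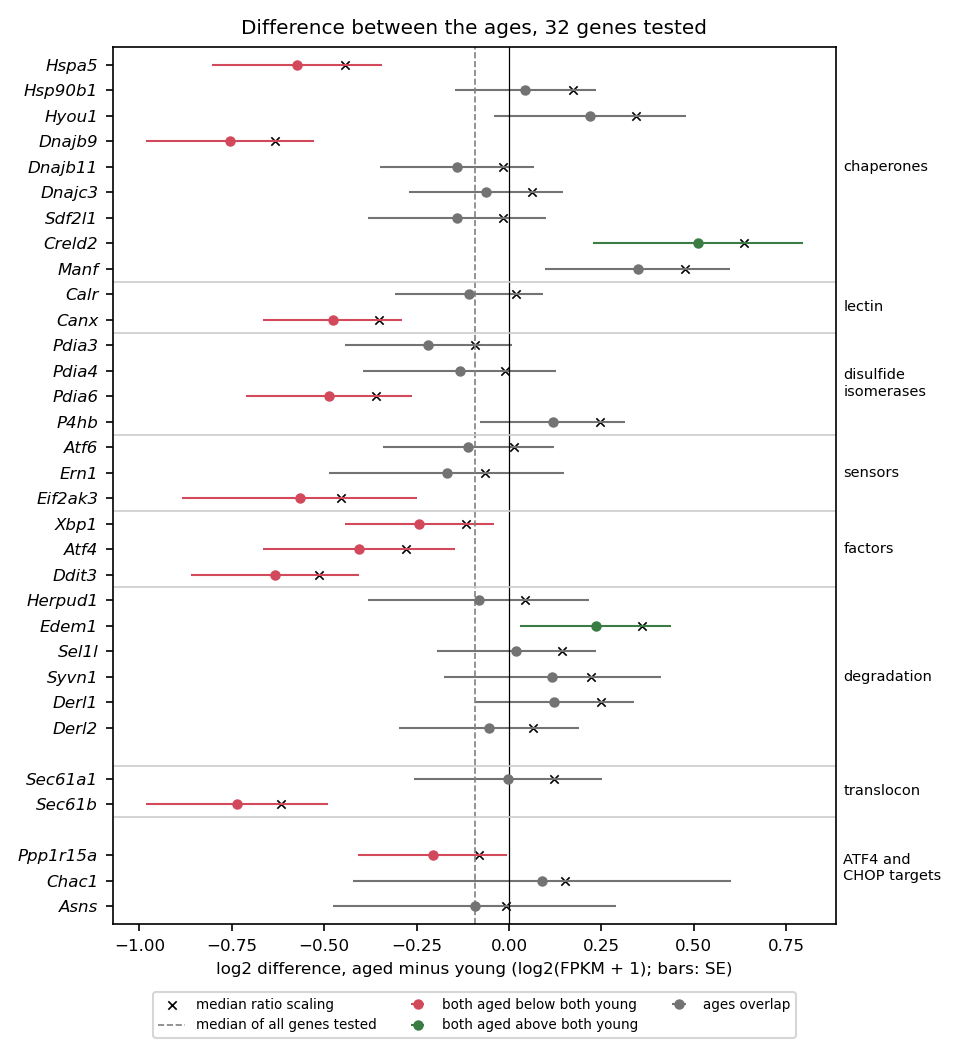
Log2 difference, aged minus young, of the 32 genes tested, with limma's SE as bars; colour shows whether both aged pools lay below both young pools, above them or overlapped, crosses give the value with median ratio scaling, and the dashed line is the median of all genes tested at -0.09. Dnajb9 at -0.76 and Sec61b at -0.74 are the lowest and Creld2 at 0.51 the highest, and the crosses lie to the right of the points.

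Among the chaperones, the level of BiP and that of its partner Dnajb9 lay below the young range in aged macrophages, while Hsp90b1 and most other partners overlapped. Hspa5, which encodes BiP, the HSP70 chaperone that holds the sensors inactive, was 354 and 310 FPKM in young pools against 261 and 190 FPKM in aged pools. Every aged value lay below every young value, and the young mean was 1.47-fold higher, 332 ± 30.7 beside 225 ± 50.3 FPKM (SD, n = 2; log2 difference -0.57, SE 0.23). Without the second aged pool the difference was -0.34, and without the first it was -0.80. Dnajb9, ERdj4, a J-domain protein that binds IRE1 and is itself a target of XBP1, was 25.8 and 27.6 FPKM in young pools against 16.7 and 14.2 FPKM in aged pools. Here too the ages were apart, with young and aged means of 26.7 ± 1.30 and 15.5 ± 1.82 FPKM (SD, n = 2), 1.73-fold higher in young (log2 difference -0.76, SE 0.23; adjusted p 0.740 in limma over all genes, as for Hspa5). Hsp90b1, GRP94, the HSP90 chaperone of the ER that folds Toll-like receptors and integrins, was 219.2 and 219.4 FPKM in young pools against 212 and 241 FPKM in aged pools, so that the aged values lay on either side of the young ones (log2 difference 0.04, SE 0.19; -0.30 with the values as deposited).

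The other partners of BiP overlapped between the ages. Dnajb11, ERdj3, was 53.6 and 45.6 FPKM in young pools against 43.3 and 46.2 FPKM in aged pools, and Dnajc3, also known as p58IPK, an inhibitor of PERK, was 29.9 and 32.3 against 29.0 and 30.4 FPKM. Sdf2l1, which forms a complex with ERdj3, was 25.8 and 33.7 FPKM in young pools against 28.7 and 24.8 FPKM in aged pools. Hyou1, GRP170, which exchanges the nucleotide of BiP, was 18.8 and 20.6 FPKM in young pools, 19.3 FPKM in the first aged pool and 27.6 FPKM in the second. The log2 differences of these 4 genes ran from -0.14 to 0.22. Removing the second aged pool left Hyou1 at -0.03, so its positive value came from that pool.

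Creld2 and Manf, small ER proteins that are induced by ER stress and can be secreted, had the highest log2 differences of the 32. Creld2, with disulfide isomerase activity, was 30.1 and 20.8 FPKM in young pools against 42.5 and 30.6 FPKM in aged pools. The aged values lay above the young ones by a narrow margin, 30.6 against 30.1 FPKM, and the log2 difference of 0.51 (SE 0.28) was no larger than the gap of 0.51 within the young pair. With the values as deposited it was -0.11. Manf, a neurotrophic factor that binds BiP, was 187 and 127 FPKM in young pools against 181 and 214 FPKM in aged pools, and the ages overlapped (log2 difference 0.35, SE 0.25). The second young pool, in which the sum of fibroblast markers was highest, was the lowest of the 4 for both genes, and the part of those cells in this was not tested. Without that pool the difference was 0.26 for Creld2 and 0.07 for Manf, and without the first young pool it was 0.77 and 0.62. Without the first aged pool Creld2 was at 0.28, and without the second Manf was at 0.23.

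The lectin chaperones, which bind glycoproteins that carry a trimmed sugar chain, had aged values below young ones in the membrane-bound form and overlapping values in the soluble form. Canx, calnexin, the membrane-bound form, was 104.3 and 104.5 FPKM in young pools against 75 and 74.4 FPKM in aged pools. The pools of each age were almost identical, at 104 ± 0.0776 and 74.7 ± 0.462 FPKM (SD, n = 2), and the young mean was 1.40-fold higher (log2 difference -0.48, SE 0.19; adjusted p 0.740 in limma). Calr, calreticulin, the soluble form, was 169 and 206 FPKM in young pools against 176 and 170 FPKM in aged pools and overlapped (log2 difference -0.11, SE 0.20, and 0.02 with median ratio scaling). Calnexin rested on at least 2772 reads in every library and calreticulin on at least 2944.

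Of the disulfide isomerases, enzymes that form and rearrange disulfide bonds, Pdia6 lay lower in aged pools and the other 3 overlapped. Pdia6, which also restrains IRE1 and PERK, was 71.3 and 61.7 FPKM in young pools against 53.1 and 41.7 FPKM in aged pools, with a young mean 1.40-fold higher (log2 difference -0.49, SE 0.22; -0.32 without the second aged pool and -0.66 without the first). P4hb, protein disulfide isomerase itself and a subunit of collagen prolyl hydroxylase, was 413 and 424 FPKM in young pools against 495 and 417 FPKM in aged pools. Pdia3, ERp57, which works with calnexin and calreticulin and in the loading of MHC class I, was 105 and 109 FPKM in young pools, 107 FPKM in the first aged pool and 78.5 FPKM in the second. Only the second aged pool thus stood below the young range. Pdia4, ERp72, was 27.0 and 30.1 FPKM in young pools against 21.4 and 31.4 FPKM in aged pools, which spanned the young values.

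All 3 sensors were transcribed, and only that of PERK had aged values apart from young ones. Eif2ak3, which encodes PERK, was 8.36 and 9.54 FPKM in young pools against 7.33 and 4.4 FPKM in aged pools, a young mean 1.53-fold higher. The gap within the aged pair, 0.63 on the log2 scale, was wider than the difference of -0.57 (SE 0.32) between the ages, which was -0.25 without the second aged pool and -0.88 without the first. Ern1, IRE1alpha, was 3.45 and 4.50 FPKM in young pools against 3.67 and 3.16 FPKM in aged pools, and Atf6 was 23.8 and 30.5 against 24.3 and 25.6 FPKM. Both overlapped between the ages. Atf6 was thus the most abundant sensor per length of transcript in all 4 pools and Ern1 the least.

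The 3 transcription factors all had aged values below both young values, as did 26.2% of all genes tested. Ddit3, CHOP, the factor that links lasting stress to cell death, was 19.0 and 20.3 FPKM in young pools against 12.4 and 12.2 FPKM in aged pools. Its ages were well apart relative to the gaps of 0.09 and 0.02 within them, with means of 19.6 ± 0.903 and 12.3 ± 0.149 FPKM (SD, n = 2), 1.6-fold higher in young (log2 difference -0.63, SE 0.23; adjusted p 0.740 in limma). Xbp1 was 123 and 105 FPKM in young pools against 101 and 91.0 FPKM in aged pools, a narrower separation (log2 difference -0.24, SE 0.20; -0.13 without the first young pool). Atf4 was 191 and 182 FPKM in young pools, 175 FPKM in the first aged pool and 112 FPKM in the second, so that most of its log2 difference of -0.41 (SE 0.26) came from 1 pool, and it was -0.09 without the second aged pool and -0.73 without the first. With median ratio scaling Xbp1 and Atf4 overlapped between the ages, at -0.12 and -0.28, and Ddit3 did not, at -0.51. Translation of Atf4 is regulated through its leader, which mRNA levels do not show.

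Of the 4 targets of ATF4 and CHOP, Ppp1r15a and Trib3 had aged values below young ones, and Asns and Chac1 overlapped. Ppp1r15a, GADD34, which directs a phosphatase to eIF2alpha and ends the block of translation, was 62.1 and 58.1 FPKM in young pools against 55.2 and 48.8 FPKM in aged pools. The ages were apart by little (log2 difference -0.21, SE 0.20; -0.12 without the second aged pool) and overlapped with median ratio scaling. Asns, asparagine synthetase, was 1.58 and 2.17 FPKM in young pools against 1.87 and 1.51 FPKM in aged pools. Chac1, which degrades glutathione, was 0.942 and 0.828 FPKM in young pools against 0.444 and 1.79 FPKM in aged pools, the last on at least 28 reads and the lowest on at least 6. Trib3, a pseudokinase that inhibits AKT, was 0.637 and 1.40 FPKM in young pools against 0.453 and 0.342 FPKM in aged pools, on at least 15, 31, 8 and 7 reads, and was below the minimum for testing.

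Genes of ER-associated degradation, which pull misfolded proteins back into the cytosol for the proteasome, had a median log2 difference of 0.07 over the 6 genes tested, with 4 positive and 2 negative differences. With the values as deposited Sel1l, Syvn1 and Derl1 turned negative, and with median ratio scaling Herpud1 and Derl2 turned positive. Edem1, a mannosidase-like protein that takes glycoproteins out of the folding cycle, was 64.7 and 64.0 FPKM in young pools against 69.1 and 83.3 FPKM in aged pools. Both aged values lay above both young values, and the log2 difference was 0.23 (SE 0.21; 0.10 without the second aged pool and 0.37 without the first). The ubiquitin ligase Syvn1, HRD1, was 3.96 and 4.39 FPKM in young pools against 4.32 and 4.91 FPKM in aged pools, and its adaptor Sel1l was 36.9 and 40.9 against 36.1 and 43.0 FPKM. Neither separated the ages. Herpud1, a scaffold of this ligase complex, differed more within the ages than between them, at 54.7 and 39.3 FPKM in young pools against 54.7 and 35 FPKM in aged pools. Its value was higher in the pool numbered 1 of either age.

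The derlins, membrane proteins of the channel through which proteins leave the ER, differed widely in level, and the ages overlapped in all 3. Derl1 was 75.1 and 84.8 FPKM in young pools against 97.3 and 77.8 FPKM in aged pools, and Derl2 was 14.1 and 15.8 FPKM in young pools against 13.0 and 15.9 FPKM in aged pools. Derl3, the form of secretory cells such as plasma cells, was at most 0.417 FPKM, on at least 1 to 3 reads a pool, and no fold is given. Its window holds the same element as that of Hspa5, shown above.

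Of the translocon, the channel through which new proteins enter the ER, the small subunit separated the ages and the pore did not. Sec61b was 24.9 and 19.2 FPKM in young pools against 12.4 and 13.1 FPKM in aged pools, with means of 22 ± 4.05 and 12.7 ± 0.461 FPKM (SD, n = 2), 1.73-fold higher in young (log2 difference -0.74, SE 0.25; adjusted p 0.740 in limma). Part of its reads could come from the gene model Gm10320, in which 14.5% of the 50-base pieces of its transcripts also occur, while no other of the 34 genes shared more than 6.79% with any 1 gene. Sec61a1, the pore, was 28.4 and 40.9 FPKM in young pools against 36.0 and 32.1 FPKM in aged pools. The young values enclosed both aged values (log2 difference -0.00245, SE 0.25).

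Ratios of genes within a library do not depend on the library's scale, and they set out how partners came apart. The pairs were picked after the values were seen and are given without a test. Hspa5 over Hsp90b1 was 1.61 and 1.42 in young pools and 1.23 and 0.786 in aged pools, so that BiP exceeded GRP94 in 3 pools and not in the second aged one. Hspa5 over P4hb was 0.857 and 0.733 in young pools against 0.527 and 0.455 in aged pools. Calr over Canx was 1.62 and 1.97 in young pools against 2.34 and 2.29 in aged pools, and P4hb over Pdia6 was 5.79 and 6.87 against 9.32 and 9.99. Sec61b over Sec61a1 was 0.878 and 0.469 in young pools against 0.345 and 0.406 in aged pools. The ages did not overlap in these 5 of the 10 ratios computed, and overlapped in the other 5. The same share over other pairs of genes was not computed. Dnajb9 over Hspa5 was 0.0729 and 0.0890 in young pools against 0.0642 and 0.0747 in aged pools and overlapped, the levels of both genes being lower in aged pools. Ddit3 over Atf4 was 0.0995 and 0.112 against 0.0707 and 0.109, and Xbp1 over Atf6 was 5.19 and 3.44 against 4.18 and 3.55. Edem1 over Herpud1 was 1.18 and 1.63 against 1.26 and 2.38, and Derl1 over Derl2 was 5.32 and 5.37 against 7.51 and 4.90.

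**Figure D3:**
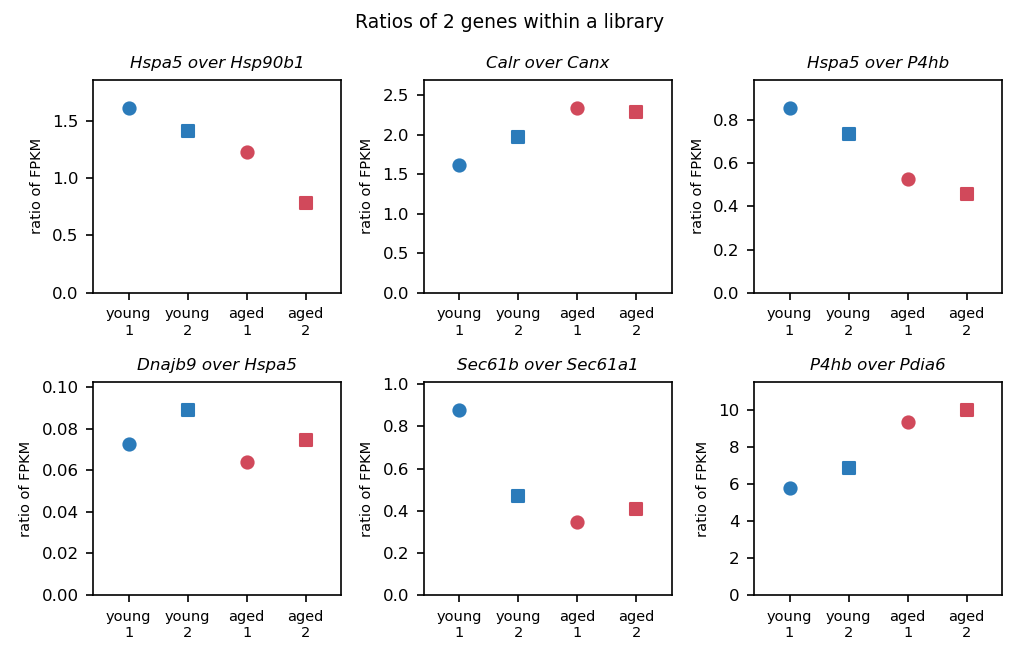
Ratio of the FPKM of 2 genes within each library, with axes from 0; blue is young, red aged, circles replicate 1 and squares replicate 2. Hspa5 over Hsp90b1 runs from 1.61 in young replicate 1 to 0.786 in aged replicate 2, Calr over Canx and P4hb over Pdia6 are higher in both aged pools, and Dnajb9 over Hspa5 overlaps.

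The genes with the ER stress element lay on both sides of 0. Of the 8 that were tested, 5 had a negative and 3 a positive log2 difference, from -0.57 in Hspa5 to 0.51 in Creld2, with a median of -0.09. The 24 tested genes with no match or no window had a median of -0.12. Among genes outside the 34, 6 with the element were tested, with a median of -0.14. Both aged pools lay below both young pools in 2 of the 6, Hnrnpa3 and Ptgdr2, beside 26.2% of all genes. They lay above in 1, Pan2, beside 11.8%. Ero1b and Alg12 are described from the rest, picked after the values were seen. Ero1b, an oxidase that recharges disulfide isomerases, was 19.7 and 17.0 FPKM in young pools against 18.1 and 20.9 FPKM in aged pools, and Alg12, a mannosyltransferase of the ER, was 7.91 and 9.0 against 8.08 and 7.01 FPKM. The ages overlapped in both.

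Other genes of the pathway were read from lists that do not hold the 34. Of 139 such genes, 131 were tested, and limma called 0 at an adjusted p below 0.05, with 0.740 as the lowest. An unadjusted p below 0.05 in limma's test was found for 11 of the 131, beside 773 of all 11656 genes. The median log2 difference of the 131 was -0.04. Both aged pools lay below both young pools in 39 and above in 19. These counts and those of each list are to be read beside 26.2% and 11.8% of all genes. Genes of entry into the ER and of glycosylation had the lowest median of these lists, -0.22 over 30 genes, with 15 below and 3 above. Srp14, of the signal recognition particle that brings ribosomes to the ER, was 104 and 101 FPKM in young pools against 67.0 and 52.1 FPKM in aged pools. Srp9, its partner, was 17.8 and 12.8 FPKM in young pools against 8.11 and 8.37 FPKM in aged pools, and both were apart between the ages. Ostc, of the complex that attaches sugar chains, was 191 and 136 against 128 and 127 FPKM, and Ssr3, of the complex at the translocon, was 154 and 139 against 109 and 135 FPKM, also with the aged values below the young ones.

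Further folding enzymes had a median of -0.02 over 24 genes. Ppib, a prolyl isomerase, was 261 and 217 FPKM in young pools, 341 FPKM in the first aged pool and 112 FPKM in the second. Serp1, which protects membrane proteins under stress, was 222 and 239 against 220 and 210 FPKM, Sdf2, the paralog of Sdf2l1, was 42.0 and 56.8 against 32.7 and 18.2 FPKM, and Tmx3, a membrane-bound isomerase, was 12 and 10.7 against 5.85 and 8.69 FPKM. In the last 3 the aged values lay below the young ones. Genes that read the sugar chain had a median of 0.02 over 13 genes. Uggt1, the folding sensor that sends glycoproteins back to calnexin, was 47.7 and 51.1 FPKM in young pools against 63.0 and 63.9 FPKM in aged pools, and Edem2 was 13.0 and 20.7 against 22.4 and 26.9 FPKM, both with aged values above the young ones. Mcfd2, of the export receptor for glycoproteins, was 84.6 and 43.1 against 58.6 and 64.6 FPKM.

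Further degradation genes had a median of 0.07 over 17 genes, as the 6 described above. Vimp, the selenoprotein that recruits the ATPase p97, was 77.3 and 61.1 against 70.4 and 62.0 FPKM. Selk, another selenoprotein of the ER, was 70.7 and 51.0 against 49.7 and 37.1 FPKM, below the young values, and Faf2, which tethers p97, was 14.2 and 16.1 against 16.2 and 19.1 FPKM, above them.

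Genes of the integrated stress response, which the kinase PERK shares with others, went both ways, with a median of 0.07 over 31 genes, 8 below and 6 above without overlap. Atf3, a stress-induced factor downstream of ATF4, was 852 and 697 FPKM in young pools against 587 and 673 FPKM in aged pools, the most abundant of the list, and Slc3a2, the heavy chain of amino acid transporters, was 83.3 and 51.7 against 68.3 and 69.2 FPKM. The tRNA synthetases Aars and Tars, both known targets of ATF4, stood on opposite sides. Aars was 13.1 and 17.2 FPKM in young pools, 69.6 FPKM in the first aged pool and 30.5 FPKM in the second, and Tars was 19.3 and 22 against 12.8 and 11.1 FPKM. Genes around the sensors had a median of -0.12 over 16 genes. Tmbim6, which restrains IRE1, was 211 and 291 against 282 and 267 FPKM, Creb3, a factor cut like ATF6, was 65.4 and 66.9 against 115 and 62.8 FPKM, Bak1, which binds IRE1 and permeabilizes mitochondria, was 37.8 and 37.1 against 28.5 and 18.3 FPKM, and Nck1, an adaptor that interacts with PERK and eIF2, was 21.2 and 18.6 against 8.12 and 15.3 FPKM.

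Chaperones outside the ER had a median log2 difference of -0.30 over 28 genes, with 17 below and 1 above without overlap, beside 26.2% and 11.8% of all genes. Hspa8, the constitutive HSP70 of the cytosol, was 594 and 543 FPKM in young pools against 487 and 341 FPKM in aged pools, with the aged values below the young ones, as for Hspa5. Hsp90ab1, the constitutive HSP90, was 395 and 383 against 447 and 386 FPKM and overlapped between the ages, as Hsp90b1 did. Hsph1 was 15.9 and 13.5 against 9.31 and 7.90 FPKM, and Dnaja2, a J-domain partner of Hspa8, was 43.0 and 38.0 against 25.6 and 26.2 FPKM. limma called 0 of these 28 genes, with 4 at an unadjusted p below 0.05, beside 773 of all 11656 genes. The difference between this list and the genes of the ER was not tested.

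**Figure D4:**
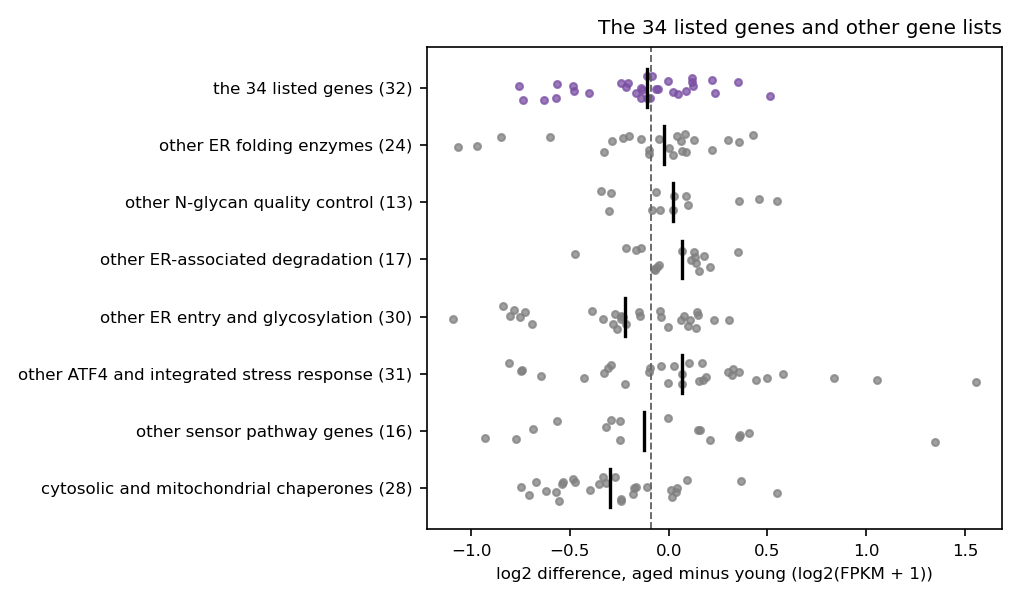
Log2 difference, aged minus young, of each gene tested in the 34 listed genes (purple) and in 7 other lists (grey), with the number tested in brackets, the list's median as a black bar and the median of all genes tested as a dashed line. The listed genes centre on -0.11, near the dashed line at -0.09, and the chaperones outside the ER lie at -0.30.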

How the data were processed

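The authors deposited FPKM values for 24028 genes in 4 libraries. Tools and build named in the submitters' processing notes are bcl2fastq, BWA 0.7.12, DESeq2 and mm10, without saying what each was used for. The sources used here do not give how reads were counted or on which annotation. Per the labels' protocols, RNA was copied from oligo-dT primers and enlarged by multiple displacement amplification, which can copy transcripts unevenly. The number in each column name is the one in the sample's description, and no value column was left unmapped.

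Deposited values in a column rest on 12 different read totals that alternate from gene to gene. They were rescaled so that each library has its own total alone. In a check that used no annotation, the restored values of 99.8% of the 17881 genes above 0 in all libraries stood in ratios of whole reads within 0.002 reads, against 0.0951% when a column was given a single total. Reads named as "at least" are the smallest whole numbers that give these ratios, and cover counting error only.

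The test was limma 3.58.1 in R 4.3.3 on log2(FPKM + 1), with the prior variance following the mean level and the 2 ages as groups. It was two-sided and ran over genes with a mean of at least 1 FPKM, with p-values adjusted by Benjamini-Hochberg over all of them. It was tested on simulated data. The genes, lists, roles and motifs were chosen with earlier results of these data known. All 34 genes were described, and of each other list the 2 with the highest mean and up to 2 with the smallest p among those of at least 5 FPKM whose ages did not overlap. A gene that this rule names among the degradation genes is not reported here. Alternatives were a pseudocount of 0.1, no filter, a minimum of 5 FPKM, the values as deposited, median ratio and quantile scaling, the replicate number as a block, and leaving out each library. Promoter windows came from RefSeq, GRCm38.p6, and shared 50-base stretches from GENCODE M21. Proteins were not analysed here.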

Additional observations from a re-analysis of the deposited data

How the results depend on the processing

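limma called 0 of the listed genes tested under each alternative, 32 of them in most, 28 with a minimum of 5 FPKM and 34 with no filter. The replicate block raised the calls over all genes from 0 to 1 higher (Lars2) and 0 lower; same-numbered libraries did not deviate together (r = -0.000384 across 11656 genes), so the numbers are not taken as pairs. The median of the genes tested was -0.11, -0.35 with the values as deposited, 0.00275 with median ratio scaling, and -0.18 to 0.0070 without a single library. With the values as deposited, 16 genes lay below and 0 above without overlap, beside 38.6% and 4.95% of all genes. With median ratio scaling 7 lay below and 6 above, beside 18.8% and 18.8% of all genes. With quantile scaling 11 lay below and 4 above, beside 23.2% and 16.1%. With no filter 11 of the 34 lay below and 2 above, beside 20.6% and 11.2%. Without a single library 12 to 18 lay below and 3 to 10 above, beside 34.7% to 47.9% and 17.6% to 32.2% of all genes. In 14 genes the direction was the same in each alternative that tested them, 12 lower and 2 higher (Edem1 and Manf). Creld2 and Syvn1, higher in the main fit, turned only with the values as deposited. The mixed totals of those values moved log2 differences by a median of -0.27. Ern1, 1 of the 12, was not tested with a minimum of 5 FPKM. The same count over all genes was not computed, and 59.5% of all genes had a negative difference in the main fit.

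The direction turned with the values as deposited in Dnajc3 (0.065), P4hb (-0.15), Sel1l (-0.21), Hsp90b1 (-0.30), Derl1 (-0.015), Chac1 (-0.21), Syvn1 (-0.16) and Creld2 (-0.11), by the mixed totals. It turned with median ratio scaling in Dnajc3 (0.062), Derl2 (0.066), Calr (0.019), Atf6 (0.014), Sec61a1 (0.12) and Herpud1 (0.043), by the shift of the zero, and with quantile scaling in Derl2 (0.026) and Sec61a1 (0.024), where the cause was not tested. Without a single library it turned in 15 genes, with ranges of -0.24 to 0.055 for Asns, -0.28 to 0.064 for Atf6, -0.25 to 0.033 for Calr, -0.38 to 0.56 for Chac1, -0.036 to 0.28 for Derl1, -0.19 to 0.083 for Derl2, -0.40 to 0.23 for Herpud1, -0.049 to 0.14 for Hsp90b1, -0.027 to 0.47 for Hyou1, -0.0055 to 0.24 for P4hb, -0.44 to 0.0020 for Pdia3, -0.40 to 0.13 for Pdia4, -0.33 to 0.048 for Sdf2l1, -0.26 to 0.25 for Sec61a1 and -0.10 to 0.14 for Sel1l. A lone library is then assumed to vary like the other age.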
